A study of Homo sapiens with 12 samples.

Results

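The 48 genes described here act in mitosis or in the passage from G2 into mitosis. They were chosen by name, as a list of symbols, and all 48 were found among the 60564 genes of the deposited expression table. Their RNA was measured by RNA-seq in BxPC-3 and CFPAC-1, established cell lines from human pancreatic ductal adenocarcinoma. There were 4 groups of 3 libraries: BxPC-3 cilia, BxPC-3 control, CFPAC-1 cilia and CFPAC-1 control. The cilia cultures were starved of serum for 48 h so that they grew primary cilia, and the control cultures were grown under normal conditions. The submitters counted cilia on 78% of starved and 5% of control BxPC-3 cells, and on 39% of starved and 7% of control CFPAC-1 cells, with no error given. Every cilia library was both starved and ciliated, so the shares of starvation and of cilia in a difference cannot be told apart. Whether the 3 libraries of a group came from separate cultures is not stated, and the p-values then reflect only how far these libraries differ, which can be technical.

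Cells enter mitosis when the kinase CDK1, bound to a cyclin, becomes active, and they leave it when the anaphase-promoting complex has cyclin B and securin destroyed. The RNAs of this machinery are made late in the cell cycle, under the control of the MuvB, B-MYB and FOXM1 proteins, and are held down in resting cells by the DREAM complex, which is built on MuvB. The primary cilium grows from the mother centriole of resting or G1 cells and is taken down before mitosis, when the centrioles serve the spindle poles. Withdrawal of serum is a standard way to bring cultured cells to rest, and cancer lines differ in how far they follow it.

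Values are given as FPKM, the fragments of a gene divided by its transcript length and by the fragments of the library, and the values of a group stand in the order of library numbers 1, 2 and 3. A log2 change is the cilia mean minus the control mean of log2(FPKM + 1). The added 1 makes it smaller than the true change for genes of low FPKM. A gene was called when its adjusted p, from limma across all 12860 tested genes with Benjamini-Hochberg adjustment, was under 0.05, and "rose" and "fell" are used only of called genes. The test took genes that reached 1 FPKM in at least 3 libraries, which 47 of the 48 did. CENPE, the kinesin that carries chromosomes to the spindle equator, was left out, and its highest value was 0.989 FPKM.

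Several libraries stood apart. The pair labelled CFPAC-1 control 2 and control 3 correlated with each other at r = 0.990 over the tested genes but at a mean of 0.803 with the other 4 CFPAC-1 libraries, which correlated among themselves at 0.944. In those other 4 libraries, 40 genes had at least 10 FPKM but at most 0.2 FPKM in both of the libraries labelled control 2 and 3, and 39 genes showed the reverse. Library numbers 2 and 3 were close to each other in all 4 groups (r of 0.987 to 0.990), and number 1 was less like them. Results are therefore given also without CFPAC-1 control 2 and 3, and within number 1 and within numbers 2 and 3. Between 11.6% and 34.0% of the summed FPKM was mitochondrially encoded, lowest in CFPAC-1 cilia 1 and highest in CFPAC-1 control 1. Of 8 epithelial and duct markers, 6 to 8 had at least 1 FPKM in every library. Of 6 endothelial markers none reached 1 FPKM, and of 6 immune cell and 6 fibroblast markers at most 1 and 2 did in any library. The summed fibroblast list ran to 105 to 110.0 FPKM in CFPAC-1 cilia 2 and 3, 26.02 FPKM in cilia 1, and 6.31 to 37.3 FPKM in CFPAC-1 control. Nearly all of the 110.0 FPKM was LUM, the matrix proteoglycan lumican, with up to 108 FPKM. In CFPAC-1, COL1A1 reached 4.28 FPKM, COL3A1 2.06 FPKM and DCN 0.942 FPKM, while COL1A2 and PDGFRB stayed under 0.4 FPKM. The CFPAC-1 libraries with 2 fibroblast markers at 1 FPKM or more were those labelled control 2 and control 3. The part of these markers in the results was not tested.

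In CFPAC-1, mitosis and G2/M genes were lower in starved, ciliated cultures than in control cultures. Of the 47 tested genes, 21 fell and none rose, where 8.77% of all tested genes fell and 7.85% rose. The log2 change was negative for 46 of the 47, with a median of -0.98, against -0.09 over all tested genes. All 3 cilia libraries were below all 3 control libraries for 32 of the 47 genes (17.6% of all tested genes), and for each of the 21 called genes. The summed FPKM of the 48 genes was 303, 737 and 766 in CFPAC-1 cilia libraries, against 981, 1205 and 1202 in CFPAC-1 control libraries. Cilia 1 was the lowest of the 6 CFPAC-1 libraries for 41 of the 48 genes. In bulk RNA, fewer cells in G2 and mitosis and less of these RNAs per cell cannot be told apart.

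These calls depended on which libraries were kept, while the median change over the 47 genes differed little without those labelled CFPAC-1 control 2 and 3. Against control 1 alone the median was -0.94, the change was negative for 45 of 47 genes, and all 3 cilia libraries were below control 1 for 39 of 47 (33.7% of all tested genes). By role, the median against control 1 was -1.21 for chromosome structure, -1.06 for the chromosomal passenger complex, -1.003 for the kinesins and -1.001 for cytokinesis. It was -0.94 for spindle assembly, -0.88 for the checkpoint, -0.80 for the cyclins and CDK1 partners and -0.99 for FOXM1, PBK and MKI67. It was nearest to 0 for the kinetochore, at -0.40 (against all controls -1.01), and for the anaphase-promoting complex partners, at -0.32 (-0.97). Without control 2 and 3, when the lone control is taken to vary like the other groups, 1 of the 47 genes was called lower (0.669% of all tested genes), and with CFPAC-1 fitted alone 5 were (1.08%). Leaving out control 2 or control 3 left 9 calls each, where 198 and 192 of all 12860 tested genes fell. When control 1 was left out there were 29, where 2998 of all tested genes fell. Leaving out cilia 1 left 12 with a median of -0.60, where 1119 of all tested genes fell, and leaving out cilia 2 left 14, where 332 fell. With all libraries 1128 of all tested genes fell.

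**Figure D1:**
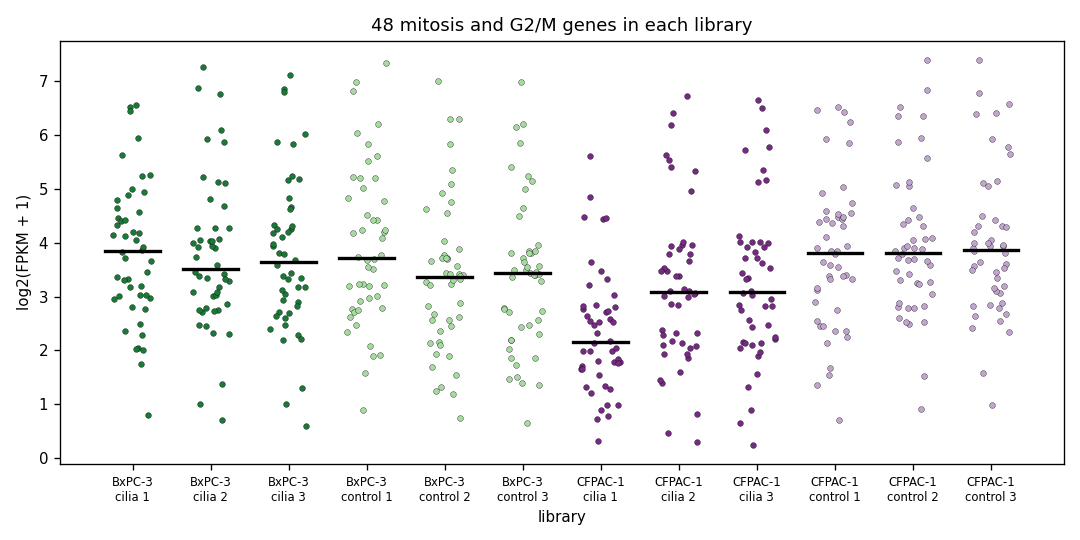
FPKM of the 48 mitosis and G2/M genes in each of the 12 libraries on the log2(FPKM + 1) scale, with 1 point per gene and the median marked, cilia groups before their control groups. CFPAC-1 cilia 1 has the lowest median, 2.16, against 3.08 in cilia 2 and 3 and 3.82 to 3.87 in the CFPAC-1 control libraries.

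The cyclins and partners of CDK1 were all lower on average in CFPAC-1 cilia libraries, but only CCNB2 passed the test (1 of 9, median log2 change -0.83). CCNB2, a B-type cyclin, had 2.46, 6.96 and 6.80 FPKM in CFPAC-1 cilia libraries, against 9.39, 23.9 and 21.5 FPKM in CFPAC-1 control libraries. Its log2 change was -1.59 (SE 0.39, adjusted p = 0.0216), the groups did not overlap, and against control 1 alone it was -0.80. CCNB1, the main mitotic cyclin, had 10.1, 45.6 and 51.8 FPKM in CFPAC-1 cilia libraries, against 56.7, 81.1 and 84.2 FPKM in CFPAC-1 control libraries. The 2 groups did not overlap either, yet cilia 1 lay far below cilia 2 and 3, and the log2 change of -1.30 (SE 0.48, adjusted p = 0.0815) did not pass. CDK1 itself had 5.01, 14.5 and 15.04 FPKM in CFPAC-1 cilia libraries, against 19.8, 13.9 and 13.3 FPKM in CFPAC-1 control libraries. Only cilia 1 was low for CDK1, and cilia 2 and 3 lay among the control values (log2 change -0.52, SE 0.33, adjusted p = 0.270). CKS2, a small protein that binds CDK1, had the highest level of this set, with 48.1, 105 and 100.02 FPKM in CFPAC-1 cilia libraries, against 85.7, 168 and 168 FPKM in CFPAC-1 control libraries. Its groups overlapped, since cilia 2 and 3 exceeded control 1 (log2 change -0.74, SE 0.34, adjusted p = 0.142). The other 5 (CCNA2, CKS1B, CDC25B, CDC25C and CDCA3) had log2 changes between -1.48 and -0.67, none called. For CCNA2, cyclin A2, the groups did not overlap and the adjusted p was 0.0605.

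In BxPC-3 none of these genes passed. For the B-type cyclins control 1 stood above controls 2 and 3, while for CDK1 and CKS2 the 3 controls were close together. CCNB2 had 29.8, 27.2 and 27.4 FPKM in BxPC-3 cilia libraries, against 36.2, 22.5 and 21.6 FPKM in BxPC-3 control libraries. CCNB1 had 48.3, 60.1 and 57.96 FPKM in BxPC-3 cilia libraries, against 64.98, 39.9 and 41.5 FPKM in BxPC-3 control libraries. For both cyclins the cilia values lay between control 1 and the lower pair of controls, with log2 changes of 0.11 (SE 0.39, adjusted p = 0.996) and of 0.21 (SE 0.48, adjusted p = 0.979). CDK1 had 15.6, 18.4 and 19.2 FPKM in BxPC-3 cilia libraries, against 12.3, 12.2 and 13.1 FPKM in BxPC-3 control libraries. Every BxPC-3 cilia library exceeded every control for CDK1, without passing the test (log2 change 0.47, SE 0.33, adjusted p = 0.774). CKS2 had 91.4, 152 and 138 FPKM in BxPC-3 cilia libraries, against 127, 128 and 127 FPKM in BxPC-3 control libraries, and its 3 control values were within the span of its cilia values.

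Of the transcription factor, kinase and proliferation marker, MKI67 fell in CFPAC-1 and FOXM1 and PBK were not called. MKI67 encodes Ki-67, the protein that coats mitotic chromosomes and by which dividing cells are counted in tumours. It had 3.49, 2.63 and 3.41 FPKM in CFPAC-1 cilia libraries, against 10.7, 11.96 and 13.9 FPKM in CFPAC-1 control libraries. The highest cilia value was far below the lowest control, with a log2 change of -1.66 (SE 0.27, adjusted p = 0.00443), and of -1.50 against control 1 alone. In BxPC-3, MKI67 had 17.4, 9.49 and 8.11 FPKM in BxPC-3 cilia libraries, against 15.9, 9.83 and 9.88 FPKM in BxPC-3 control libraries, so the groups overlapped (log2 change -0.06, SE 0.27, adjusted p = 1). FOXM1, the forkhead factor that drives G2/M transcription, had 2.99, 12.8 and 5.74 FPKM in CFPAC-1 cilia libraries, against 13.3, 7.25 and 18.8 FPKM in CFPAC-1 control libraries. Libraries 2 and 3 of a group differed widely for FOXM1, and the groups overlapped (log2 change -0.88, SE 0.53, adjusted p = 0.248). FOXM1 in BxPC-3 gave 20.9, 9.19 and 23.7 FPKM in BxPC-3 cilia libraries, against 31.6, 12.6 and 13.4 FPKM in BxPC-3 control libraries, again with overlap (log2 change -0.07, SE 0.53, adjusted p = 1). PBK, a mitotic protein kinase, had 5.54, 15.2 and 15.1 FPKM in CFPAC-1 cilia libraries, against 21.3, 11.8 and 10.9 FPKM in CFPAC-1 control libraries. Cilia 1 was the lowest and control 1 the highest PBK value, with the other 4 between (log2 change -0.33, SE 0.35, adjusted p = 0.528). In BxPC-3, PBK had 8.98, 13.9 and 11.1 FPKM in BxPC-3 cilia libraries, against 10.4, 8.68 and 10.3 FPKM in BxPC-3 control libraries (log2 change 0.18, SE 0.35, adjusted p = 0.967).

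None of the 3 genes tied to the anaphase-promoting complex was called in CFPAC-1. CDC20, the activator that opens the complex to its anaphase substrates, had 20.8, 71.9 and 67.4 FPKM in CFPAC-1 cilia libraries, against 90.8, 91.5 and 94.6 FPKM in CFPAC-1 control libraries. The 3 cilia values were all below the 3 control values, which were close together, but cilia 1 was far below the rest (log2 change -0.97, SE 0.43, adjusted p = 0.130). UBE2C, the ubiquitin-conjugating enzyme that works with the complex, had 27.7, 84.02 and 90.1 FPKM in CFPAC-1 cilia libraries, against 74.8, 57.4 and 60.02 FPKM in CFPAC-1 control libraries. For UBE2C cilia 2 and 3 were the highest CFPAC-1 libraries and cilia 1 the lowest, so the mean change was near 0 (log2 change -0.09, SE 0.38, adjusted p = 0.888). PTTG1, securin, which holds separase in check until anaphase, had 8.23, 30.3 and 34.9 FPKM in CFPAC-1 cilia libraries, against 25.8, 61.1 and 53.9 FPKM in CFPAC-1 control libraries. The PTTG1 control 1 value was below cilia 2 and 3, and the groups overlapped (log2 change -1.05, SE 0.48, adjusted p = 0.143). In BxPC-3, CDC20 had 86.6, 117 and 115 FPKM in BxPC-3 cilia libraries, against 161, 78.4 and 72.5 FPKM in BxPC-3 control libraries. UBE2C there had 92.98, 107 and 111 FPKM in BxPC-3 cilia libraries, against 112, 78.1 and 70.3 FPKM in BxPC-3 control libraries. PTTG1 in BxPC-3 had 36.98, 67.7 and 64.2 FPKM in BxPC-3 cilia libraries, against 55.9, 55.8 and 57.2 FPKM in BxPC-3 control libraries. For CDC20 and UBE2C the single high control was control 1, and the 3 log2 changes were between -0.05 and 0.28, none called.

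Spindle checkpoint genes were lower in CFPAC-1 cilia libraries, and BUB1 and BUB1B passed the test (2 of 4, median -1.15). BUB1, a kinase that marks kinetochores not yet attached, had 2.46, 4.04 and 4.88 FPKM in CFPAC-1 cilia libraries, against 7.77, 10.1 and 11.2 FPKM in CFPAC-1 control libraries. No cilia value reached the lowest control, the log2 change was -1.18 (SE 0.22, adjusted p = 0.00839), and against control 1 alone it was -0.91. In BxPC-3, BUB1 had 6.88, 7.11 and 7.30 FPKM in BxPC-3 cilia libraries, against 5.90, 4.16 and 3.95 FPKM in BxPC-3 control libraries. All BxPC-3 cilia values exceeded all control values, without passing the test (log2 change 0.53, SE 0.22, adjusted p = 0.549). MAD2L1, which encodes MAD2, the inhibitor of CDC20, had 3.14, 7.64 and 7.20 FPKM in CFPAC-1 cilia libraries, against 10.9, 8.46 and 7.63 FPKM in CFPAC-1 control libraries. Cilia 2 overlapped control 3 for MAD2L1 (log2 change -0.58, SE 0.27, adjusted p = 0.143). In BxPC-3, MAD2L1 had 7.12, 9.68 and 9.03 FPKM in BxPC-3 cilia libraries, against 5.57, 6.13 and 5.92 FPKM in BxPC-3 control libraries, every cilia value above every control (log2 change 0.48, SE 0.27, adjusted p = 0.684). BUB1B, the checkpoint protein BUBR1, fell in CFPAC-1 (log2 change -1.13, SE 0.29, adjusted p = 0.0251), and the checkpoint kinase gene TTK did not pass (log2 change -1.16, SE 0.38, adjusted p = 0.0571).

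Within the chromosomal passenger complex, which corrects faulty attachments and later steers cytokinesis, CDCA8 and AURKB fell in CFPAC-1 and BIRC5 and INCENP were not called. CDCA8, borealin, had 4.51, 11.6 and 12.1 FPKM in CFPAC-1 cilia libraries, against 19.8, 32.1 and 33.5 FPKM in CFPAC-1 control libraries. Its groups did not overlap and its log2 change was -1.57 (SE 0.40, adjusted p = 0.0257). AURKB, the kinase of the complex, had 4.86, 9.46 and 9.10 FPKM in CFPAC-1 cilia libraries, against 14.3, 18.8 and 17.4 FPKM in CFPAC-1 control libraries. The AURKB change was smaller, at -1.06 (SE 0.29, adjusted p = 0.0347), again without overlap. BIRC5, survivin, had 3.98, 7.78 and 7.37 FPKM in CFPAC-1 cilia libraries, against 13.5, 9.64 and 10.6 FPKM in CFPAC-1 control libraries. All BIRC5 cilia values were below the controls, and the test was just missed (log2 change -0.76, SE 0.25, adjusted p = 0.0559). In BxPC-3, CDCA8 had 16.4, 18.4 and 18.2 FPKM in BxPC-3 cilia libraries, against 27.5, 11.6 and 10.2 FPKM in BxPC-3 control libraries. AURKB had 12.2, 14.2 and 14.4 FPKM in BxPC-3 cilia libraries, against 20.4, 9.75 and 9.96 FPKM in BxPC-3 control libraries. For both, BxPC-3 control 1 was the highest of the 6 libraries and controls 2 and 3 the lowest, so that the mean changes were small (0.23 and 0.10). BIRC5 had 11.7, 7.12 and 8.08 FPKM in BxPC-3 cilia libraries, against 10.7, 9.53 and 9.31 FPKM in BxPC-3 control libraries, the most negative of the 47 changes in BxPC-3 (log2 change -0.15, SE 0.25, adjusted p = 0.952). INCENP, the scaffold of the complex, had a CFPAC-1 log2 change of -0.61 (SE 0.43, adjusted p = 0.324).

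Among the centromere and kinetochore genes, CENPF and NDC80 fell in CFPAC-1 (2 of 5 tested, median -1.01). CENPF, a large protein of the outer kinetochore and a marker of G2 cells, had 0.973, 0.751 and 0.852 FPKM in CFPAC-1 cilia libraries, against 3.40, 6.06 and 6.37 FPKM in CFPAC-1 control libraries. This was the most negative change of the 47 genes, -1.72 (SE 0.26, adjusted p = 0.00331), and against control 1 alone it was -1.24. In BxPC-3, CENPF had 3.09, 1.60 and 1.47 FPKM in BxPC-3 cilia libraries, against 2.76, 1.49 and 1.63 FPKM in BxPC-3 control libraries, with cilia and control nearly alike at each number (log2 change 0.03, SE 0.26, adjusted p = 1). NDC80, the microtubule-binding core of the NDC80 complex, had 1.51, 4.00 and 3.76 FPKM in CFPAC-1 cilia libraries, against 4.17, 12.1 and 9.97 FPKM in CFPAC-1 control libraries. Control 1 was only slightly above cilia 2 for NDC80, and controls 2 and 3 were far above (log2 change -1.21, SE 0.36, adjusted p = 0.0416). In BxPC-3, NDC80 had 6.01, 7.48 and 6.50 FPKM in BxPC-3 cilia libraries, against 4.54, 2.83 and 2.62 FPKM in BxPC-3 control libraries. Every cilia value was above every control, and this was the largest positive change of the 47 genes in BxPC-3, though not called (log2 change 0.85, SE 0.36, adjusted p = 0.551). SPC25 and NUF2 encode further subunits of the NDC80 complex. SPC25 had 2.95, 7.55 and 8.99 FPKM in CFPAC-1 cilia libraries, against 11.5, 13.4 and 14.3 FPKM in CFPAC-1 control libraries, without overlap (log2 change -1.01, SE 0.33, adjusted p = 0.0573). NUF2 had 2.59, 6.15 and 6.13 FPKM in CFPAC-1 cilia libraries, against 4.85, 4.76 and 4.04 FPKM in CFPAC-1 control libraries. NUF2 was the only one of the 47 genes with a positive mean change in CFPAC-1 (log2 change 0.04, SE 0.26, adjusted p = 0.943), cilia 2 and 3 being its highest CFPAC-1 values and cilia 1 its lowest. In BxPC-3, SPC25 had 6.71, 10.01 and 9.23 FPKM in BxPC-3 cilia libraries, against 8.37, 4.47 and 4.89 FPKM in BxPC-3 control libraries (log2 change 0.51, SE 0.33, adjusted p = 0.752). NUF2 had 3.01, 4.47 and 3.66 FPKM in BxPC-3 cilia libraries, against 2.71, 3.30 and 3.59 FPKM in BxPC-3 control libraries (log2 change 0.16, SE 0.26, adjusted p = 0.946). Of these 3 subunit genes, NDC80 was thus called in CFPAC-1 and the others were not. CENPA, the histone of the centromere, had a CFPAC-1 log2 change of -0.18 (SE 0.30, adjusted p = 0.696). The untested CENPE had 0.242, 0.225 and 0.186 FPKM in CFPAC-1 cilia libraries, against 0.640, 0.876 and 0.989 FPKM in CFPAC-1 control libraries, under the filter in every library.

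Mitotic kinesins, the motors that build and slide the spindle, were the group with the most calls in CFPAC-1: 5 of 6 fell, and for all 6 no cilia value reached the lowest control (median -1.38). KIF11, the motor that pushes spindle poles apart, had 2.39, 3.41 and 3.45 FPKM in CFPAC-1 cilia libraries, against 9.58, 12.9 and 13.1 FPKM in CFPAC-1 control libraries. It had the lowest adjusted p of the 47 genes, with a log2 change of -1.65 (SE 0.20, adjusted p = 0.00118), and was the gene that stayed called without control 2 and 3 (adjusted p = 0.0404, log2 change -1.38). KIF23, a motor of the centralspindlin complex of the midzone, had 1.43, 2.04 and 2.90 FPKM in CFPAC-1 cilia libraries, against 4.499, 8.61 and 7.94 FPKM in CFPAC-1 control libraries (log2 change -1.35, SE 0.23, adjusted p = 0.00569). KIF4A, a chromosome-bound motor, had 2.16, 7.41 and 7.58 FPKM in CFPAC-1 cilia libraries, against 12.9, 16.02 and 15.6 FPKM in CFPAC-1 control libraries (log2 change -1.37, SE 0.37, adjusted p = 0.0315). KIF2C, which takes microtubules apart at centromeres, had 4.78, 13.9 and 15.2 FPKM in CFPAC-1 cilia libraries, against 21.4, 32.6 and 32.1 FPKM in CFPAC-1 control libraries (log2 change -1.39, SE 0.38, adjusted p = 0.0341). In KIF4A and KIF2C cilia 2 and 3 were about 3 times cilia 1, so the spread within the cilia group was wider than for KIF11 and KIF23. KIFC1, a minus-end motor that gathers extra centrosomes, had 5.63, 14.5 and 14.1 FPKM in CFPAC-1 cilia libraries, against 22.2, 34.04 and 34.3 FPKM in CFPAC-1 control libraries (log2 change -1.40, SE 0.36, adjusted p = 0.0267). KIF20A, which brings the passenger complex to the midzone, had 3.42, 10.1 and 12.1 FPKM in CFPAC-1 cilia libraries, against 13.9, 13.8 and 14.3 FPKM in CFPAC-1 control libraries. Its controls were alike and all above the cilia values, but the cilia values spread widely and the test was not passed (log2 change -0.80, SE 0.44, adjusted p = 0.210).

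In BxPC-3 none of the kinesin genes passed, and their log2 changes lay between 0.02 and 0.31. KIF11 had 8.22, 5.73 and 5.58 FPKM in BxPC-3 cilia libraries, against 5.74, 4.91 and 4.39 FPKM in BxPC-3 control libraries. KIF23 had 9.30, 9.08 and 9.40 FPKM in BxPC-3 cilia libraries, against 8.45, 8.46 and 9.53 FPKM in BxPC-3 control libraries. For KIF11 cilia 2 and 3 were just below control 1, and for KIF23 the cilia values lay within the span of the controls. KIF4A had 17.2, 12.3 and 13.03 FPKM in BxPC-3 cilia libraries, against 17.96, 8.87 and 9.72 FPKM in BxPC-3 control libraries. KIF2C had 37.2, 36.6 and 36.9 FPKM in BxPC-3 cilia libraries, against 48.0, 23.7 and 24.01 FPKM in BxPC-3 control libraries. KIFC1 had 20.1, 15.3 and 16.1 FPKM in BxPC-3 cilia libraries, against 21.96, 10.9 and 10.6 FPKM in BxPC-3 control libraries. For these 3 the cilia libraries were above controls 2 and 3 but below control 1. KIF20A, with 28.6, 15.5 and 17.4 FPKM in BxPC-3 cilia libraries, against 35.9, 15.3 and 13.4 FPKM in BxPC-3 control libraries, was high in both libraries numbered 1 and about a factor of 2 lower in the rest.

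Of the spindle assembly factors, TPX2, DLGAP5 and ASPM fell in CFPAC-1 (3 of 6, median -0.91). TPX2, which switches on the kinase Aurora A on the spindle, had 21.1, 48.6 and 53.8 FPKM in CFPAC-1 cilia libraries, against 87.4, 114 and 109 FPKM in CFPAC-1 control libraries. TPX2 is among the most abundant of the 48 genes, and every cilia value was well below the lowest control (log2 change -1.41, SE 0.38, adjusted p = 0.0314). DLGAP5, which steadies kinetochore fibres, had 1.52, 2.80 and 3.13 FPKM in CFPAC-1 cilia libraries, against 4.49, 11.6 and 11.5 FPKM in CFPAC-1 control libraries (log2 change -1.49, SE 0.31, adjusted p = 0.0117). NUSAP1, which bundles spindle microtubules, had 4.78, 7.31 and 14.2 FPKM in CFPAC-1 cilia libraries, against 16.3, 15.6 and 14.96 FPKM in CFPAC-1 control libraries. NUSAP1 cilia 3 lay just under the lowest control, and the test was just missed (log2 change -0.88, SE 0.28, adjusted p = 0.0512). In BxPC-3, TPX2 had 60.4, 57.98 and 56.2 FPKM in BxPC-3 cilia libraries, against 73.1, 29.4 and 30.9 FPKM in BxPC-3 control libraries (log2 change 0.51, SE 0.38, adjusted p = 0.801). DLGAP5 had 13.2, 14.4 and 12.9 FPKM in BxPC-3 cilia libraries, against 12.7, 9.496 and 10.9 FPKM in BxPC-3 control libraries (log2 change 0.28, SE 0.31, adjusted p = 0.904). NUSAP1 had 20.4, 18.4 and 18.96 FPKM in BxPC-3 cilia libraries, against 11.8, 12.1 and 13.1 FPKM in BxPC-3 control libraries (log2 change 0.60, SE 0.28, adjusted p = 0.590). For DLGAP5 and NUSAP1 every BxPC-3 cilia value was above every control, and for TPX2 control 1 was the highest. The others had CFPAC-1 log2 changes of -0.94 for ASPM, -0.59 for PRC1 and -0.26 for HMMR, of which ASPM, a spindle pole protein, was called (adjusted p = 0.0151).

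Genes of chromosome structure fell in 3 of 4 cases in CFPAC-1 (median -1.03). TOP2A, the topoisomerase that untangles sister DNA, had 7.12, 7.05 and 9.81 FPKM in CFPAC-1 cilia libraries, against 20.8, 13.96 and 14.6 FPKM in CFPAC-1 control libraries. The TOP2A groups did not overlap and cilia 1 was not lower than cilia 2 (log2 change -0.95, SE 0.24, adjusted p = 0.0243). SMC4, the ATPase arm shared by both condensins, had 2.95, 1.74 and 1.96 FPKM in CFPAC-1 cilia libraries, against 5.72, 5.93 and 5.88 FPKM in CFPAC-1 control libraries. For SMC4 the control values were close together, and cilia 1 was the highest of the cilia values (log2 change -1.11, SE 0.21, adjusted p = 0.00809). NCAPH, the closing subunit of condensin I, had 1.31, 3.12 and 3.30 FPKM in CFPAC-1 cilia libraries, against 7.92, 8.94 and 8.16 FPKM in CFPAC-1 control libraries (log2 change -1.44, SE 0.29, adjusted p = 0.0105). In BxPC-3, TOP2A had 22.7, 14.9 and 14.7 FPKM in BxPC-3 cilia libraries, against 17.8, 12.1 and 12.95 FPKM in BxPC-3 control libraries (log2 change 0.26, SE 0.24, adjusted p = 0.856). SMC4 had 8.02, 5.61 and 4.56 FPKM in BxPC-3 cilia libraries, against 7.01, 6.34 and 5.52 FPKM in BxPC-3 control libraries (log2 change -0.07, SE 0.21, adjusted p = 0.989). NCAPH had 5.82, 5.87 and 5.47 FPKM in BxPC-3 cilia libraries, against 6.58, 2.74 and 3.07 FPKM in BxPC-3 control libraries (log2 change 0.46, SE 0.29, adjusted p = 0.736). None of the 3 passed in BxPC-3 and each had overlapping groups. NCAPG, another condensin I subunit, had a change of -0.77 in CFPAC-1 (adjusted p = 0.0531) and of 0.71 in BxPC-3, where its groups did not overlap.

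For cytokinesis, ANLN and ECT2 fell in CFPAC-1 and RACGAP1 did not pass. ANLN, the scaffold of the contractile ring, had 9.06, 10.1 and 13.3 FPKM in CFPAC-1 cilia libraries, against 22.4, 19.4 and 20.3 FPKM in CFPAC-1 control libraries, with close values within each group (log2 change -0.89, SE 0.18, adjusted p = 0.0115). ECT2, the exchange factor that activates RhoA at the equator, had 6.04, 3.24 and 3.38 FPKM in CFPAC-1 cilia libraries, against 9.48, 15.8 and 14.98 FPKM in CFPAC-1 control libraries. ECT2 was another gene whose cilia 1 value was the highest of its cilia group (log2 change -1.48, SE 0.24, adjusted p = 0.00439). RACGAP1, the centralspindlin partner of KIF23, had 11.5, 12.9 and 16.5 FPKM in CFPAC-1 cilia libraries, against 22.97, 20.6 and 18.6 FPKM in CFPAC-1 control libraries, without overlap (log2 change -0.58, SE 0.25, adjusted p = 0.121). In BxPC-3, ANLN had 14.1, 10.97 and 11.8 FPKM in BxPC-3 cilia libraries, against 11.9, 9.09 and 9.51 FPKM in BxPC-3 control libraries (log2 change 0.25, SE 0.18, adjusted p = 0.789). ECT2 had 9.98, 7.53 and 7.76 FPKM in BxPC-3 cilia libraries, against 8.20, 8.34 and 8.81 FPKM in BxPC-3 control libraries (log2 change -0.01, SE 0.24, adjusted p = 1). RACGAP1 had 19.05, 15.3 and 18.02 FPKM in BxPC-3 cilia libraries, against 20.5, 9.68 and 11.5 FPKM in BxPC-3 control libraries (log2 change 0.37, SE 0.25, adjusted p = 0.760). All 3 overlapped between BxPC-3 cilia and control.

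**Figure D2:**
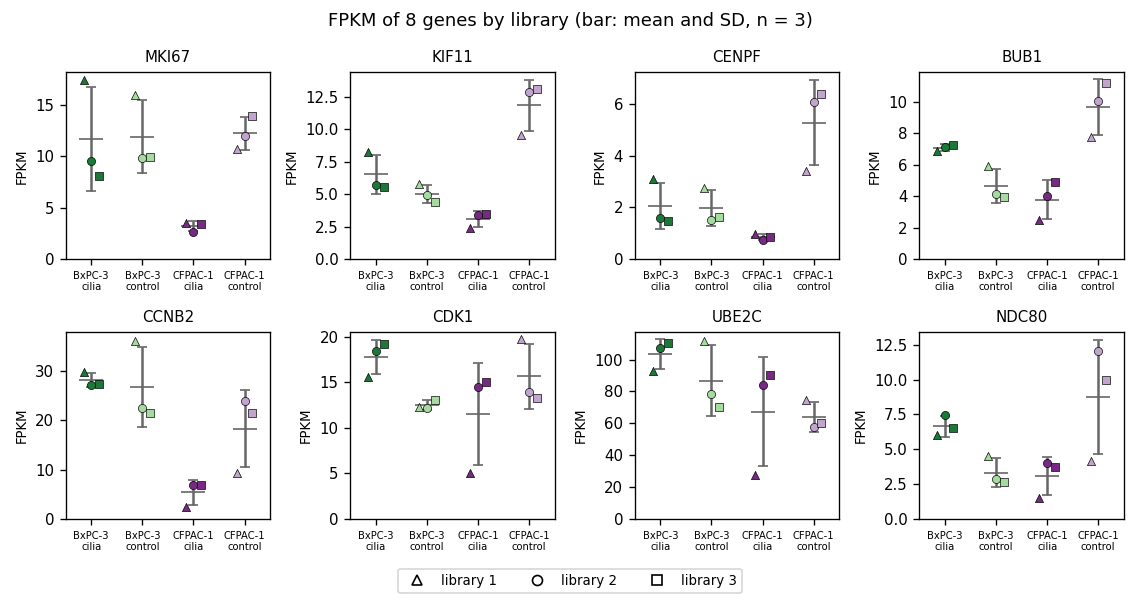
FPKM of selected genes in every library, with triangles, circles and squares for library numbers 1, 2 and 3, and grey bars for the mean ± SD (n = 3), cilia left of control in each line. KIF11 has 2.39 to 3.45 FPKM in CFPAC-1 cilia, against 9.58 to 13.1 FPKM in CFPAC-1 control, and 5.58 to 8.22 FPKM in BxPC-3 cilia, against 4.39 to 5.74 FPKM in BxPC-3 control.

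In BxPC-3, where more cells were ciliated after starvation, none of the 47 genes passed the test in either direction. Adjusted p ran from 0.434 to 1, and 3 of the 47 had an unadjusted p under 0.05. Few genes were called in BxPC-3 at all: 0.295% of the tested genes rose and 0.0389% fell. In simulated data the fit called 36 of 100 genes given a log2 change of 1 in BxPC-3, so a gene not called may still have changed. The log2 change was positive for 37 of 47, with a median of 0.23, against 0.06 over all tested genes. For 7 of the 47 every cilia library exceeded every control (12.4% of all tested genes): CDK1, BUB1, MAD2L1, NDC80, NUSAP1, DLGAP5 and NCAPG, named here because of these values. For none was every cilia library below every control. Control 1 was the highest of the BxPC-3 control libraries for 40 of the 48 genes, at a median log2 difference of 0.58 from the mean of controls 2 and 3. Without the libraries numbered 1 the limma fit called 25 of the 47 genes higher and 2 lower in BxPC-3 cilia, but it then called 42.0% of all tested genes, since libraries 2 and 3 of a group differ little.

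The difference between the lines was itself tested, as the BxPC-3 change minus the CFPAC-1 change. It was positive for all 47 genes, with a median of 1.23, against 0.16 over all tested genes. It passed for 7 of the 47, all higher, where 1.34% of all tested genes were called higher and 1.11% lower. The 7 were KIF11 (difference of log2 changes 1.96, SE 0.29, adjusted p = 0.0153), NCAPH (difference of log2 changes 1.90, SE 0.41, adjusted p = 0.0410), CENPF (difference of log2 changes 1.75, SE 0.37, adjusted p = 0.0386), BUB1 (difference of log2 changes 1.71, SE 0.32, adjusted p = 0.0257), ECT2 (difference of log2 changes 1.46, SE 0.34, adjusted p = 0.0496), KIF23 (difference of log2 changes 1.41, SE 0.33, adjusted p = 0.0497) and ANLN (difference of log2 changes 1.14, SE 0.26, adjusted p = 0.0457). They come from the motors, condensin, the kinetochore, the checkpoint and cytokinesis, and all 7 had fallen in CFPAC-1. On GRCh38, in GENCODE release 29, KIF11 lies at chr10:92593286-92655395, NCAPH at chr2:96335787-96373845, CENPF at chr1:214603195-214664588 and BUB1 at chr2:110637698-110678114. ECT2 lies at chr3:172750682-172821474, KIF23 at chr15:69414246-69448427 and ANLN at chr7:36389806-36453791. The remaining 40 genes did not pass; NDC80 had a difference of 2.06 (SE 0.51, adjusted p = 0.0568), and CDK1 one of 0.99 (SE 0.46, adjusted p = 0.213). With library number as a replicate block, 3 of the 47 passed (KIF11, BUB1 and KIF23), where 306 of all 12860 tested genes were called. Adjusted p with the block was 0.0525 for ANLN, 0.0526 for CENPF, 0.0607 for NCAPH and 0.0673 for ECT2. No gene of the 47 passed without CFPAC-1 control 2, without CFPAC-1 control 3, without BxPC-3 control 2 or without BxPC-3 control 3. Those fits called 9, 11, 0 and 13 of all 12860 tested genes, against 315 with all libraries. In the fit without both of these CFPAC-1 controls the median difference was 1.15.

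**Figure D3:**
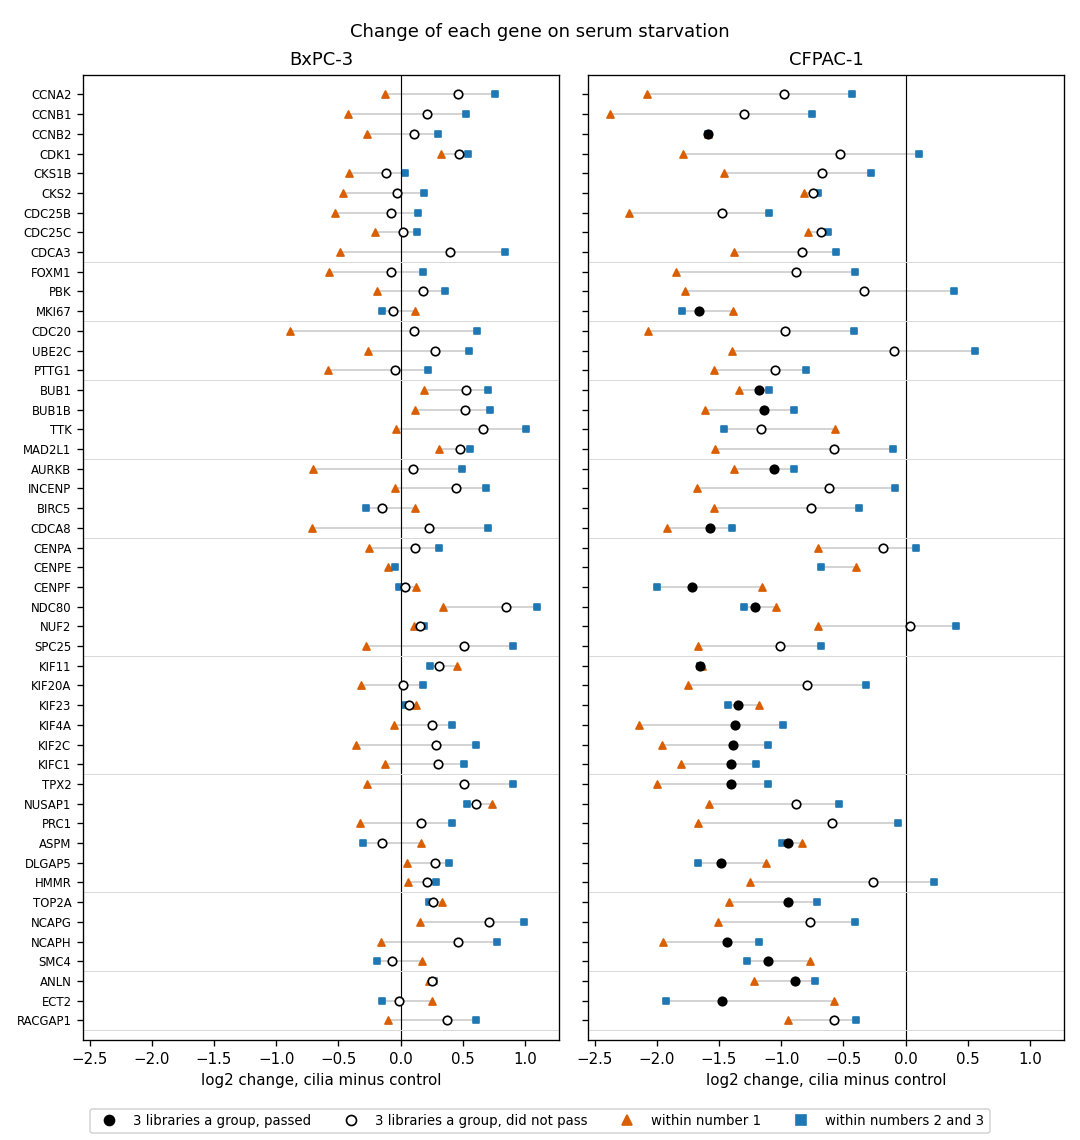
Log2 change, cilia minus control on the log2(FPKM + 1) scale, of the 48 genes in BxPC-3 and CFPAC-1, grouped by role: circles for 3 libraries a group (filled where called; none for the untested CENPE), triangles within number 1 and squares within numbers 2 and 3. Circles for CFPAC-1 run from -1.72 to 0.04, and those for BxPC-3 from -0.15 to 0.85.

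Split by library number, the order of the 2 lines was kept and the size of the changes was not. Within number 1, where the CFPAC-1 controls in doubt take no part, the change was more negative in CFPAC-1 than in BxPC-3 for 48 of 48 genes (56.5% of all tested genes). Within numbers 2 and 3, where they are the only CFPAC-1 controls, it was so for 45 of 48 (59.3%). Each change within number 1 sets 1 library against 1. In CFPAC-1 it rests on cilia 1, the lowest CFPAC-1 library for 41 of the 48 genes, at a median log2 difference of -0.96 from the mean of cilia 2 and 3. Neither subset is thus free of libraries that stood apart. The median CFPAC-1 change of the 47 genes was -1.53 within number 1, negative for all 47, and -0.72 within numbers 2 and 3, negative for 41. The 6 genes with a positive CFPAC-1 change within numbers 2 and 3 were CDK1, PBK, UBE2C, CENPA, NUF2 and HMMR, at 0.11, 0.39, 0.56, 0.08, 0.41 and 0.23. In BxPC-3 the median was -0.10 within number 1 and 0.41 within numbers 2 and 3, and 33 of the 48 genes had opposite signs in the 2 subsets. The MKI67 change in CFPAC-1 was -1.39 within number 1 and -1.80 within numbers 2 and 3, and that of KIF11 was -1.64 and -1.66. The CDC20 change in BxPC-3 was -0.89 within number 1 and 0.61 within numbers 2 and 3.

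Among the starved, ciliated libraries alone, mitosis and G2/M genes were higher in BxPC-3 than in CFPAC-1. The CFPAC-1 controls in doubt take no part in these means. The spread used in the test was estimated over all 12 libraries, those controls included. Of the 47 genes, 19 were called higher and none lower, where 21.4% of all tested genes were called higher in BxPC-3 and 14.8% lower. The median log2 difference was 0.79, against 0.12 over all tested genes, and all BxPC-3 values exceeded all CFPAC-1 values for 32 of the 47 genes (32.1% of all tested genes). CCNB2 differed most, with 29.8, 27.2 and 27.4 FPKM in BxPC-3 cilia libraries, against 2.46, 6.96 and 6.80 FPKM in CFPAC-1 cilia libraries (log2 difference 2.28, SE 0.39, adjusted p = 0.000988). DLGAP5 came next, at 2.09 (SE 0.31, adjusted p = 0.000405), then KIF2C at 1.76 (SE 0.38, adjusted p = 0.00464) and KIF23 at 1.74 (SE 0.23, adjusted p = 0.000199). For CCNB2, DLGAP5, KIF2C and KIF23 the lowest BxPC-3 value was at least 2 times the highest CFPAC-1 value. MKI67 (log2 difference 1.54, SE 0.27, adjusted p = 0.00134), KIF4A (log2 difference 1.30, SE 0.37, adjusted p = 0.0184), KIF20A (log2 difference 1.27, SE 0.44, adjusted p = 0.0406) and PTTG1 (log2 difference 1.35, SE 0.48, adjusted p = 0.0477) were higher too. Of the further calls, NUSAP1 differed by 1.17 (SE 0.28, adjusted p = 0.00736), and SMC4 by 1.12 (SE 0.21, adjusted p = 0.00179). Differences near 0 included PBK (log2 difference 0.03, SE 0.35, adjusted p = 0.964) and CKS1B (log2 difference -0.02, SE 0.24, adjusted p = 0.955). With the replicate block 18 were called, without KIF20A (adjusted p = 0.0647) and TTK (adjusted p = 0.0531) and with NDC80 (adjusted p = 0.0496). That fit called 4881 of all tested genes, against 4660 without the block. Without CFPAC-1 cilia 1, 12 genes were called higher and 1 lower, where 2786 of all 12860 tested genes were called higher and 1732 lower. Without BxPC-3 cilia 1, 11 of the 47 were higher and none lower, where 2379 of all tested genes were higher and 1719 lower. The control groups were not tested against each other. Their median log2 difference over the 48 genes, BxPC-3 minus CFPAC-1, was -0.38, and between the libraries numbered 1 alone it was 0.05, with 25 of 48 genes higher in BxPC-3.

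**Figure D4:**
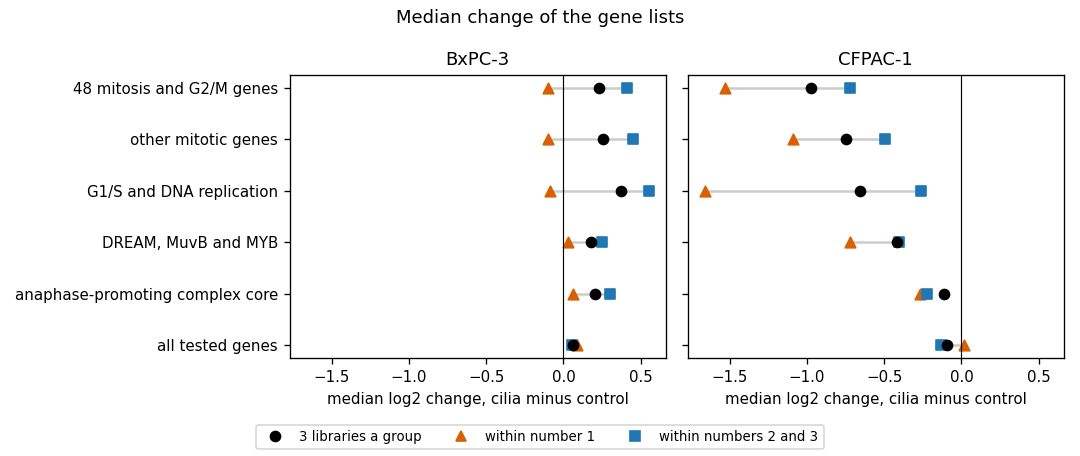
Median log2 change, cilia minus control, of each gene list over 3 libraries a group (circles), within number 1 (triangles) and within numbers 2 and 3 (squares), for BxPC-3 and CFPAC-1. The 47 tested mitosis and G2/M genes have CFPAC-1 medians of -1.53 and -0.72 and BxPC-3 medians of -0.10 and 0.41.

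Some properties of the libraries moved with these values. Within numbers 2 and 3 of both lines, the change tended to be lower for longer transcripts than for shorter ones. In CFPAC-1 the correlation of log2 transcript length with the change within numbers 2 and 3 was -0.42 over the 48 genes and -0.15 over 11125 tested protein-coding genes, and the tenth of protein-coding genes with the longest transcripts had a median change of -0.45, against 0.04 in the tenth with the shortest. In BxPC-3 the correlation over the 48 genes was 0.48 within number 1 and -0.28 within numbers 2 and 3, against 0.18 and -0.26 over the protein-coding genes. These correlations are across genes of the same libraries, which are not independent. Over 3 libraries a group, the 16 genes of shortest transcript (613 to 2469 bases) had a median CFPAC-1 change of -0.81. It was -1.26 for the 16 of middle length and -1.03 for the 16 of longest transcript (3725 to 12678 bases). Within numbers 2 and 3 the same medians were -0.58, -1.10 and -0.94 in CFPAC-1, and 0.51, 0.45 and 0.25 in BxPC-3. Among the genes of longest transcript are MKI67, ASPM and CENPF. The 13 mitochondrially encoded mRNAs had a median CFPAC-1 change of -0.73, which was -2.32 within number 1 and 0.10 within numbers 2 and 3. Of the 8 tested replication-dependent histone genes, whose RNAs lack a poly(A) tail, 6 rose in CFPAC-1 and none fell, with a median of 1.65. Of all tested genes, 7.85% rose and 8.77% fell in CFPAC-1. In BxPC-3 none of the 8 passed (5 with an unadjusted p under 0.05) and the median was 0.79, where 0.295% of all tested genes rose and 0.0389% fell. The part of transcript length, mitochondrial share and histone RNA in the results was not tested. With FPKM rescaled without the mitochondrial genes, 28 of the 47 genes fell in CFPAC-1, and over all tested genes 773 rose and 1758 fell, against 1010 and 1128 as deposited. For the difference between the lines that scaling called 274 genes higher and 137 lower, and quantile normalization 90 higher and 160 lower, against 172 and 143 as deposited. Between the cilia libraries of the lines, quantile normalization called 2348 genes higher and 2402 lower, against 2751 and 1909 as deposited.

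Other genes of the same machinery, which are not among the 48, were lower in CFPAC-1 cilia libraries as well. Of 74 further mitotic genes, 31 fell and 1 rose, where 8.77% of all tested genes fell and 7.85% rose. Their median was -0.75, or -0.84 against control 1 alone. In BxPC-3 none passed (11 with an unadjusted p under 0.05) and the median was 0.25. PLK1, the polo-like kinase of mitotic entry, had 4.31, 20.1 and 20.2 FPKM in CFPAC-1 cilia libraries, against 26.99, 26.1 and 27.4 FPKM in CFPAC-1 control libraries. In BxPC-3, PLK1 had 15.4, 19.97 and 19.2 FPKM in BxPC-3 cilia libraries, against 28.6, 9.69 and 8.40 FPKM in BxPC-3 control libraries, and it was called in neither line (log2 change -1.06, SE 0.52, adjusted p = 0.170, in CFPAC-1). AURKA, Aurora A, the kinase of the spindle poles, had 7.18, 19.5 and 13.1 FPKM in CFPAC-1 cilia libraries, against 30.7, 24.2 and 38.9 FPKM in CFPAC-1 control libraries. AURKA just missed the threshold (log2 change -1.25, SE 0.40, adjusted p = 0.0532), and its BxPC-3 change was 0.31. CENPW, a centromere protein, and SKA1, which couples kinetochores to microtubules, fell most of this list, with log2 changes of -1.94 (SE 0.46, adjusted p = 0.0205) for CENPW and -1.63 (SE 0.41, adjusted p = 0.0247) for SKA1. The difference between the lines passed for 10 of the 74, all higher, where 1.34% of all tested genes were called higher. Among the 10 were SKA1 (difference of log2 changes 2.61, SE 0.58, adjusted p = 0.0442) and CENPI (difference of log2 changes 1.62, SE 0.30, adjusted p = 0.0271), also of the centromere. With the replicate block 6 of the 74 passed, without SKA1 (adjusted p = 0.0587), where 306 of all tested genes were called.

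Of 15 core subunits of the anaphase-promoting complex, 1 fell in CFPAC-1 and none rose, where 8.77% of all tested genes fell. The median of the 15 was -0.11 (-0.24 against control 1 alone), and in BxPC-3 none passed (0 with an unadjusted p under 0.05, median 0.21). The subunit that fell was ANAPC1, the scaffold (log2 change -0.98, SE 0.25, adjusted p = 0.0267). Of 18 genes of the DREAM, MuvB and MYB regulators, 3 fell in CFPAC-1 and none rose, with a median of -0.42 (-0.81 against control 1 alone), and none passed in BxPC-3 (0 with an unadjusted p under 0.05, median 0.18). They included E2F3, an activating E2F (log2 change -1.14, SE 0.17, adjusted p = 0.00308), and MYBL2, which encodes B-MYB (log2 change -1.57, SE 0.48, adjusted p = 0.0478). With the replicate block 4 of the 18 were called in CFPAC-1, without MYBL2 (adjusted p = 0.0622), where 2428 of all tested genes were called. The E2F3 difference between the lines passed as well (difference of log2 changes 1.07, SE 0.24, adjusted p = 0.0446), but not with the replicate block (adjusted p = 0.0526).

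Genes of the G1/S passage and DNA replication, which act earlier in the cycle, gave a contrast by library number. Of 40, 14 fell in CFPAC-1 and none rose, where 8.77% of all tested genes fell and 7.85% rose. Their median change was -0.66, or -1.24 against control 1 alone. The median was -1.66 within number 1 and -0.26 within numbers 2 and 3, where that of the 47 mitosis and G2/M genes was -1.53 and -0.72. The gap between the 2 lists was not tested. TYMS, thymidylate synthase, and MCM2, of the replicative helicase, fell most of this list, with log2 changes of -1.45 (SE 0.26, adjusted p = 0.00686) for TYMS and -1.23 (SE 0.34, adjusted p = 0.0325) for MCM2. In BxPC-3 none of the 40 passed (6 with an unadjusted p under 0.05), 39 had a positive change and the median was 0.38. The difference between the lines passed for 4 of the 40, all higher, where 1.34% of all tested genes were called higher. The 4 included TYMS (difference of log2 changes 1.77, SE 0.37, adjusted p = 0.0384) and RFC4, a subunit of the clamp loader (difference of log2 changes 1.67, SE 0.27, adjusted p = 0.0184).

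The promoters of the 48 genes were read because genes of this kind are known to share the cell cycle genes homology region (CHR), the letters to which MuvB binds, near CCAAT boxes that bind NF-Y. Of the 48, 41 had RefSeq promoter sequences, 52 in all, each from 250 bases before to 50 bases after the start of the gene in GRCh38.p14. The letters searched were TTTGAA or TTCGAA for the CHR and CCAAT, each on both strands. Other forms of the CHR were not searched for, so a gene without these letters was not shown to lack a CHR. The CHR letters were found in 33 of 41 genes (80.5%), against 19.5% of 27305 genes with a promoter in the table, 66.7% of the further mitotic genes with a promoter and 5.71% of the G1/S and replication genes with a promoter. CCAAT was found in 80.5% of the 41, against 39.7% of all genes, and both in 65.9%, against 7.85%. In the shorter window from 150 bases before the start, the CHR letters were found in 78.0%, against 12.4%. A match is a description of letters, not of binding. The 7 genes not matched were TTK, TPX2, PBK, UBE2C, FOXM1, RACGAP1 and BIRC5.

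The 130 bases just before the start are shown for 5 genes to let the shared letters be seen. Of these, 4 have the CHR letters searched and CCNB1 does not. Capitals mark the CHR letters and CCAAT, or their reverse complement (TTCAAA and ATTGG), and in MKI67 a CHR match overlaps an ATTGG. CCNB2 is at chr15:59105016-59105145, plus strand; CDC20 at chr1:43358851-43358980, plus strand; MKI67 at chr10:128126424-128126553, minus strand; KIF4A at chrX:70289974-70290103, plus strand; CCNB1 at chr5:69167020-69167149, plus strand. Each is written 5′ to 3′ on the strand of its gene.
CCNB2: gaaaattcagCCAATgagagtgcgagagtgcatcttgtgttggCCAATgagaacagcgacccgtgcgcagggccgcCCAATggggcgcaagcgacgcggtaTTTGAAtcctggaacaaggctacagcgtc
CDC20: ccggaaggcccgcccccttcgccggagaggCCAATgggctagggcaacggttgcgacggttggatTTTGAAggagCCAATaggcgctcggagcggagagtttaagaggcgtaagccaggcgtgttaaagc
MKI67: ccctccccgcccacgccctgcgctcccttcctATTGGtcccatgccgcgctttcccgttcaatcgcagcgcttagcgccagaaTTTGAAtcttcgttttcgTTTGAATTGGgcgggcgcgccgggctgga
KIF4A: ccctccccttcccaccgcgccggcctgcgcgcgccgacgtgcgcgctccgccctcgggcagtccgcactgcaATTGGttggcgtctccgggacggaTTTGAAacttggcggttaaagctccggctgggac
CCNB1: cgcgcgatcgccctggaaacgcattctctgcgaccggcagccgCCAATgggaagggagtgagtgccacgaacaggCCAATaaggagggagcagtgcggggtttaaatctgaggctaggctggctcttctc

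The changes were set beside the presence of the CHR letters, without a test. Of the 33 tested genes with them, 17 fell, with a median of -0.97 in CFPAC-1 and 0.23 in BxPC-3. Of the 7 tested genes without them, 3 fell, with a median of -1.06 in CFPAC-1 and 0.21 in BxPC-3. CCNB2, with CHR letters and 3 CCAAT boxes in the stretch shown, fell in CFPAC-1. CCNB1, with 2 CCAAT boxes and neither TTTGAA nor TTCGAA, had a change of -1.30 that did not pass. CDC20, with CHR letters and CCAAT boxes, had a change of -0.97 that did not pass.

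Some of the 48 values may hold reads of other genes. Whether counting used strand is not stated. KIF4A overlaps PDZD11 on the opposite strand, which had up to 57.5 FPKM. Also on opposite strands, CDC25C overlaps FAM53C (up to 27.1 FPKM), KIF20A overlaps CDC23 (up to 13.7 FPKM) and FOXM1 overlaps RHNO1 (up to 13.6 FPKM). On the same strand, where use of strand would not separate reads, CENPA overlaps SLC35F6 (up to 11.9 FPKM) and PRC1 overlaps AC068831.7 (up to 8.40 FPKM). CKS1B has processed pseudogenes of which CKS1BP3 was listed at up to 22.9 FPKM, and CDC20 has CDC20P1 at up to 6.76 FPKM, so reads of CKS1B and CDC20 may be split between copies.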

How the data were processed

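The authors deposited a table of log2 values, log2(FPKM + 1), for 60564 genes in 12 libraries of BxPC-3 and CFPAC-1, per the file headers and the values. FastQC, StringTie and the build GRCh38 are named, without versions, per the submitters' processing notes. For the aligner, the annotation and strandedness, a description is not given in the sources used here. FPKM was recovered by undoing the offset. The table holds no counts: relative depth, read from a weak peak in low values, was 0.642 to 1, so no counting interval is given.

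The 12860 genes that reached 1 FPKM in 3 or more libraries were fitted with limma 3.58.1 in R 4.3.3, with 4 group means over all 12 libraries (8 residual degrees of freedom), two-sided, Benjamini-Hochberg adjusted over all tested genes, threshold 0.05. The fit was tested on simulated data, drawn with the residual spread of each gene. Of 100 genes given a log2 change of 1, it called 30 in CFPAC-1 and 36 in BxPC-3. Of 100 given a log2 change of 2, it called 95 in CFPAC-1 and 90 in BxPC-3. Members, lists, tests and alternatives were chosen with earlier results of these data known, including the doubt about the labels of CFPAC-1 control 2 and 3.

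Genes given in every library were the 2 of highest mean level per role, CDK1, CCNB1, FOXM1, MKI67 and TOP2A, up to 10 called genes of largest change per contrast, and the largest rise and fall per line; of other lists, PLK1, AURKA and up to 2 called genes per list and contrast. Genes outside this rule are named in counts, ranges or examples chosen after their values were seen. The lists are the 48 genes by role, further mitotic genes, the anaphase-promoting complex core, DREAM regulators, G1/S and replication genes, 4 marker lists, mitochondrial mRNAs and histones (1 histone symbol was not found in the table).

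Cilia and control libraries of the same number did not deviate together from their group means in CFPAC-1 (r of -0.08 to -0.02), and in BxPC-3 at 0.05 to 0.15, so numbers were not taken to pair them. Between the lines, cilia libraries of the same number correlated at 0.29, 0.27 and 0.12, and control libraries at 0.16, 0.12 and 0.12. Libraries of unlike number were not compared between the lines, so whether the numbers pair them there is not known. The main fit has no block, and calls with a replicate block are given beside it. Alternatives were another pseudocount (0.1), filter (none, or a mean FPKM of at least 5), scaling, variance model, fits per line, a replicate block, and libraries left out. GENCODE release 29 supplied coordinates and transcript lengths (96.5% of gene identifiers found).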

Additional observations from a re-analysis of the deposited data

Results flagged for a closer look

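For 7 of the 47 tested mitosis and G2/M genes the change in BxPC-3 differed from that in CFPAC-1 in a test of the difference itself (limma, adjusted over all tested genes). The difference of log2 changes, BxPC-3 minus CFPAC-1, was 1.96 for KIF11, 1.90 for NCAPH, 1.75 for CENPF and 1.71 for BUB1. It was 1.46 for ECT2, 1.41 for KIF23 and 1.14 for ANLN. Adjusted p was between 0.0153 for KIF11 and 0.0497 for KIF23. With library number as a replicate block KIF11, BUB1 and KIF23 passed, and ANLN, CENPF, NCAPH and ECT2 did not (adjusted p 0.0525 to 0.0673). The fit with the block called 306 of all tested genes. None of the 7 passed without CFPAC-1 control 2 or without CFPAC-1 control 3, fits that called 9 and 11 of all 12860 tested genes. Within number 1 alone, with 1 library a group, the difference kept its sign for each of the 7, as it did for all 48 genes.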

How the results depend on the processing

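Of the 47 genes, 21 were called in CFPAC-1, 0 in BxPC-3, 7 for the difference between the lines and 19 between the lines in cilia libraries. With no filter on low values the counts were 12 in CFPAC-1, 3 for the difference and 12 between the lines. For the difference, 3 were called with a pseudocount of 0.1, 3 after quantile normalization and 4 with a mean FPKM of at least 5. CFPAC-1 fitted alone called 5. Without CFPAC-1 control 2 and 3 the counts were 1 in CFPAC-1 and 0 for the difference, and without these and cilia 1, a setting chosen after seeing the data, 3 and 2, with medians of -0.60 and 0.87, against -0.98 and 1.23 in the full data. Without the library numbered 1 of every group, 39 were called in CFPAC-1 (36 lower, 3 higher), 27 in BxPC-3, 39 for the difference and 35 between the lines. Leaving out each library in turn gave 9 to 29 in CFPAC-1 with medians of -1.19 to -0.60, 0 in BxPC-3 with medians of 0.11 to 0.42, 0 to 24 for the difference with medians of 1.03 to 1.46, and 11 to 24 between the lines with medians of 0.57 to 0.95. A replicate block on library number called 22, 0, 3 and 18, where it called 2428, 33, 306 and 4881 of all tested genes. Of the 6 cilia libraries, 2 correlated best with the control of their own number.

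Over all tested genes, 2138 were called in CFPAC-1, 43 in BxPC-3, 315 for the difference and 4660 between the lines. CFPAC-1 counts outside 1.5 times were 364 fitted alone, 1329 with a mean FPKM of at least 5, 222 without control 2 and 3, 720 without these and cilia 1, 8714 without the libraries numbered 1, and 506 to 5403 leaving out each library. In BxPC-3 they were 25 with the other pseudocount, 73 with no filter, 11 with a mean FPKM of at least 5, 13 fitted alone, 5396 without the libraries numbered 1 and 2 to 249 leaving out each library. For the difference they were 163, 162 with a mean of at least 5, 55 without control 2 and 3, 8023 without the libraries numbered 1, and 0 to 4148 leaving out each library. Between the lines they were 2140 with a mean of at least 5 and 8728 without the libraries numbered 1. Quantile normalization brought the median of all tested genes between the lines to 0.00, against 0.12 as deposited, and that of the 47 genes to 0.76, against 0.79. The CFPAC-1 medians stayed negative and the difference medians positive under every setting run. The causes were not tested. Absolute depth is unknown, so differences of genes near 1 FPKM, such as CENPF and ASPM, have no counting error here.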
